A study of Homo sapiens with 12 samples.

Results

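NRF2, encoded by NFE2L2, is a transcription factor that KEAP1 holds back in resting cells by handing it to a ubiquitin ligase. Electrophiles and oxidants modify KEAP1, NRF2 is released, and together with small MAF proteins it binds antioxidant response elements near genes of detoxification and thiol metabolism, while BACH1 competes for the same elements. Keratinocytes meet reactive aldehydes, quinones and peroxides from sunlight, lipid oxidation and chemicals, and this programme is one of their known defences. A group of 10 of its enzyme genes was followed here: ALDH3A1 for aldehyde oxidation, AKR1B10, AKR1C1, AKR1C2 and AKR1C3 for carbonyl reduction, NQO1 for quinone reduction, GCLC and GCLM for glutathione synthesis, and TXNRD1 and SRXN1 for the repair of oxidised thiols. The genes were chosen by name out of 58735 genes in the table, each symbol matched 1 identifier, and all 10 passed the filter on low values (a group mean of at least 0.5 FPKM in some group), as 14577 genes did. The choice was made knowing that ALDH3A1 and AKR1B10 were lower with PHGDH siRNA than with control siRNA in cells without mix. A list of NRF2-linked genes was also known from that comparison, so for all 10 genes it is described without a test.

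RNA was sequenced from HaCaT cells, an immortalised human keratinocyte line grown in DMEM with serum, in 12 libraries. All cells had received an siRNA, either a control (the Control-siRNA group) or one against PHGDH, the first enzyme of serine synthesis (the PHGDH-siRNA group). In each arm a second group was treated for 24 h with a mix (Control-siRNA+Mix and PHGDH-siRNA+Mix), so there were 4 groups of 3 libraries. What the mix holds, and which siRNA sequences were used, is not given in the sources used here. Since nothing says whether replicate libraries are separate cultures, p-values reflect the spread among these libraries alone, which may be technical. Because whole cultures were sequenced, fewer expressing cells and less RNA per cell cannot be told apart.

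The libraries held 16403845 to 20901128 reads recovered from the FPKM values (fragments per kilobase of gene length, scaled to library size). PHGDH itself stood at 36.5 to 56.2 FPKM in Control-siRNA, 26.6 to 31.9 in Control-siRNA+Mix, 16.9 to 23.7 in PHGDH-siRNA and 11.5 to 19.1 in PHGDH-siRNA+Mix, so the arms did not overlap either without or with mix, although the difference with mix missed the threshold over all genes (log2 difference -1.01, limma adjusted p = 0.200). The 6 keratinocyte markers were above 0.5 FPKM in every group. Lists of fibroblast, melanocyte, leukocyte and endothelial markers each summed to 2.93 FPKM or less in every library. The replicate 2 libraries of PHGDH-siRNA and PHGDH-siRNA+Mix stood apart from the other PHGDH siRNA libraries. KRT14, a keratin of basal keratinocytes, was at 2986 FPKM in PHGDH-siRNA replicate 2 against 548 and 617 in its group, and at 2737 in PHGDH-siRNA+Mix replicate 2 against 1082 and 1092. Differences of the 10 genes between 2 groups that moved by over 1.5 times, or were called or lost, without this pair of libraries are given both ways.

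Antioxidant response elements share a core that was searched as TGACNNNGC on both strands of RefSeq promoters (GRCh38.p14), each running from 250 bases before to 50 bases after a gene's start. The promoter table held 8 of the 10 genes with 10 promoters; ALDH3A1 and AKR1B10 were not in it. The core was found in the GCLM promoter and both TXNRD1 promoters, that is for 2 of the 8 genes, and in 13.3% of all 35116 promoters. The looser core TGANNNNGC, which includes the first, was found for 5 of the 8 genes and in 41.8% of all promoters. The counts are of genes and the shares are of promoters, so they are not like for like. These letters are common, and a match is a description, not a binding site. Bases outside these windows were not searched, so the lack of a match does not show that a gene has no element. The 3 full windows around the stricter core are shown because they are the closest that these promoters come to the element for which the genes are grouped, with the core in capitals as it reads on the gene's own strand, at chr1:93909446-93909474 (minus strand), chr12:104215670-104215698 and chr12:104286920-104286948 (plus strand); a further match, 8 bases before the start in the first TXNRD1 promoter, is not shown.
GCLM: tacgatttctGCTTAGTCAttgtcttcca
TXNRD1, first promoter: acacgggctaTGACTTCGCtgttgtcacc
TXNRD1, second promoter: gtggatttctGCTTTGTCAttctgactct

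AKR1C1, AKR1C2 and AKR1C3 lie side by side on chromosome 10 and are copies of one another, which decides how far their values can be told apart. Their coding sequences are each 969 bases in GENCODE 29; AKR1C2 differed from AKR1C1 at 19 of them (98% identical) and AKR1C3 at 79 (91.8% identical). The first 90 coding bases are shown because they make plain how few letters separate reads of the 3 genes, with capitals where a letter differs from AKR1C1.
AKR1C1: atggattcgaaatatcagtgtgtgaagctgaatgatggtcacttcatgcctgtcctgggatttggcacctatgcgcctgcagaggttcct
AKR1C2: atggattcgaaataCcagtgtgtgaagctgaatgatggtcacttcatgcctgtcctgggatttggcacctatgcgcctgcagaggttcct
AKR1C3: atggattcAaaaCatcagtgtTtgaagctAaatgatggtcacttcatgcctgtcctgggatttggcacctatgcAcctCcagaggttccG
The likeness of AKR1C1 and AKR1C2 extends beyond the coding part. In the 250 bases before the RefSeq starts the 2 genes were 96.5% identical, against 71.4% for AKR1C1 and AKR1C3. The last 100 of these bases are shown with their longest shared run of 95 bases in capitals, from chr10:4963315-4963414 (plus strand) and chr10:5003858-5003957 (minus strand).
AKR1C1 upstream: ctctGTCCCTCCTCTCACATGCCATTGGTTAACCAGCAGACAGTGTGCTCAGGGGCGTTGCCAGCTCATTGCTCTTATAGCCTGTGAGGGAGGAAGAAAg
AKR1C2 upstream: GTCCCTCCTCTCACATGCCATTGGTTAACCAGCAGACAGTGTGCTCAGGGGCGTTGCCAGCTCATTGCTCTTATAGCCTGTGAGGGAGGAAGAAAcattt
Among all 50-base stretches of their transcripts, 28.6% for AKR1C1 and 38.9% for AKR1C2 also occur in another gene, against 4.53% for AKR1C3. The split of reads between AKR1C1 and AKR1C2 is therefore uncertain, since the handling of shared reads is not given in the sources used here.

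ALDH3A1 (ENSG00000108602, chr17:19737984-19748943 of hg38, minus strand) encodes a dehydrogenase that oxidises lipid-derived and aromatic aldehydes. Its level was 7.34, 11.3 and 12.6 FPKM in Control-siRNA and 0.703, 0.833 and 1.03 FPKM in Control-siRNA+Mix. It was 3.95, 2.47 and 2.87 FPKM in PHGDH-siRNA and 0.486, 0.414 and 0.607 FPKM in PHGDH-siRNA+Mix. The order of the levels was Control-siRNA, PHGDH-siRNA, Control-siRNA+Mix and PHGDH-siRNA+Mix, with no overlap between neighbours. With mix, ALDH3A1 fell 12.2-fold in mean FPKM under control siRNA (10.4 ± 2.75 to 0.856 ± 0.166, SD, n = 3 libraries each; log2 difference -2.59, SE 0.19, limma adjusted p = 1.19e-05). Under PHGDH siRNA it fell 6.17-fold (3.10 ± 0.761 to 0.502 ± 0.0978; log2 difference -1.43, SE 0.19, limma adjusted p = 9.64e-04). Log2 differences throughout are of FPKM + 1, which understates changes of low genes: with 0.1 added in place of 1 the difference under PHGDH siRNA was -2.40. The mix libraries still held 30 to 77 reads of ALDH3A1 each.

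AKR1B10 (ENSG00000198074, chr7:134527592-134541408, plus strand) encodes an aldo-keto reductase that acts on retinaldehyde and other carbonyls. It followed ALDH3A1 closely, at 7.22, 8.21 and 8.89 FPKM in Control-siRNA and 3.39, 2.96 and 3.14 FPKM in PHGDH-siRNA. With mix it was at 0.395, 0.749 and 0.452 FPKM under control siRNA and 0.325, 0.403 and 0.0930 FPKM under PHGDH siRNA. The order of the groups was that of ALDH3A1, but the 2 mix groups overlapped. The mix libraries held 12 to 24 reads under control siRNA and 3 to 13 under PHGDH siRNA, so their levels are set partly by counting error. AKR1B10 fell 15.2-fold with mix under control siRNA (8.11 ± 0.843 to 0.532 ± 0.190 FPKM; log2 difference -2.57, SE 0.14, limma adjusted p = 1.03e-06) and 11.6-fold under PHGDH siRNA (3.16 ± 0.219 to 0.273 ± 0.161 FPKM; -1.72, SE 0.14, limma adjusted p = 3.68e-05). With 0.1 added in place of 1, these differences were -3.73 and -3.24. For ALDH3A1 and AKR1B10, the fall under control siRNA starts from Control-siRNA libraries known to be high when these genes were chosen. Their p-values there are not independent of that choice. Its coding sequence is 86.1% identical to that of AKR1B15, and 14.6% of its 50-base stretches occur in another gene.

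The AKR1C reductases, which act on steroids, prostaglandins and lipid aldehydes, were not among the genes that fell. AKR1C1 (ENSG00000187134, chr10:4963253-4983283, plus strand) was at 9.70, 8.26 and 9.13 FPKM in Control-siRNA and at 10.4, 8.76 and 8.75 FPKM in Control-siRNA+Mix. In PHGDH-siRNA it was at 6.57, 3.06 and 5.31 FPKM and in PHGDH-siRNA+Mix at 10.3, 4.57 and 9.78 FPKM. All libraries of PHGDH-siRNA lay below those of Control-siRNA, and replicate 2 was the lowest of its group in both PHGDH siRNA arms. AKR1C2 (ENSG00000151632, chr10:4987400-5018031, minus strand) was the most abundant of the 3 per length, at 37.0, 30.0 and 33.2 FPKM in Control-siRNA and 54.2, 48.2 and 47.5 FPKM in Control-siRNA+Mix. It was at 22.5, 12.9 and 16.6 FPKM in PHGDH-siRNA and 35.8, 15.8 and 37.0 FPKM in PHGDH-siRNA+Mix. AKR1C2 was higher with mix in every library under control siRNA, and lower with PHGDH siRNA in every library both without and with mix. AKR1C3 (ENSG00000196139, chr10:5035354-5107686, plus strand) was at 20.1, 16.5 and 14.6 FPKM in Control-siRNA, 22.2, 21.0 and 18.1 in Control-siRNA+Mix, 14.5, 10.4 and 10.7 in PHGDH-siRNA and 17.1, 14.2 and 18.0 in PHGDH-siRNA+Mix. For AKR1C1 and AKR1C3 no neighbours in the order of the group means were free of overlap, and for AKR1C2 only Control-siRNA+Mix and Control-siRNA were.

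In one fit over all 4 groups, none of the 3 AKR1C genes passed the threshold with mix. The log2 differences under control siRNA were 0.04 for AKR1C1, 0.57 for AKR1C2 and 0.25 for AKR1C3 (limma adjusted p = 0.965, 0.285 and 0.422), and under PHGDH siRNA 0.60, 0.68 and 0.45 (limma adjusted p = 0.232, 0.195 and 0.122). The answer depended on how replicate 2 was treated. Within the PHGDH siRNA arms, libraries of the same number deviated together (correlations of 0.690, 0.775 and 0.459 across genes), and with replicate as a block in those arms all 3 genes were called higher with mix under PHGDH siRNA (limma adjusted p = 0.00272, 0.0105 and 0.0404; SE 0.10, 0.15 and 0.13). Without the replicate 2 pair, AKR1C1 and AKR1C2 were called there, with log2 differences of 0.68 and 0.88 (limma adjusted p = 0.00787 and 0.00536), and AKR1C3 was not (0.47, limma adjusted p = 0.120). Under control siRNA AKR1C2 was called when only the 6 control siRNA libraries were fitted (limma adjusted p = 0.0158) or the pair was left out (limma adjusted p = 0.0126).

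**Figure D1:**
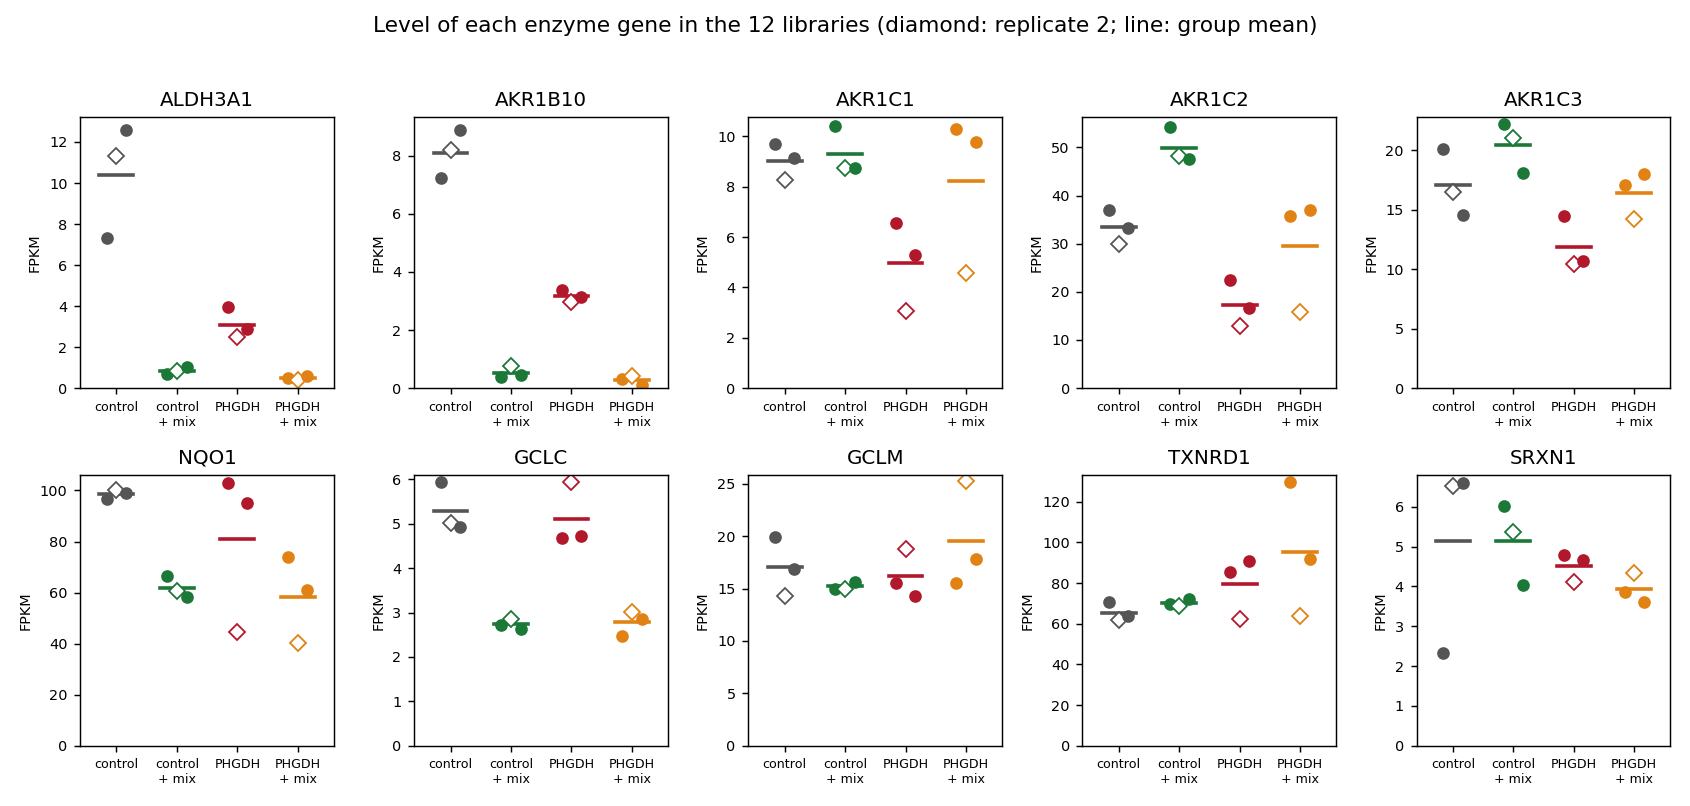
Level in FPKM (vertical axes from 0, one panel per gene) in the 12 libraries by group; each point is a library, open diamonds are replicate 2 and lines are group means. ALDH3A1 and AKR1B10 were at 1.03 FPKM or less in every mix library, whereas NQO1, AKR1C1 and AKR1C2 were lowest in the open diamonds of the PHGDH siRNA groups.

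NQO1 (ENSG00000181019, chr16:69706996-69726951, minus strand) encodes the quinone reductase that is widely used as a readout of NRF2. It was at 96.8, 100.2 and 98.9 FPKM in Control-siRNA and at 66.4, 60.7 and 58.1 FPKM in Control-siRNA+Mix. In PHGDH-siRNA it was at 103, 44.7 and 94.9 FPKM and in PHGDH-siRNA+Mix at 73.9, 40.3 and 61.1 FPKM. The control siRNA groups did not overlap, and the low values of both PHGDH siRNA groups were replicate 2. The differences with mix were -0.67 under control siRNA (SE 0.29, limma adjusted p = 0.207) and -0.42 under PHGDH siRNA (SE 0.29, limma adjusted p = 0.459), neither past the threshold. Without the replicate 2 pair both were, at -0.67 and -0.55 (limma adjusted p = 0.00158 and 0.0159), as was the first in a fit of the control siRNA libraries alone (limma adjusted p = 0.00390). The block within the PHGDH siRNA arms gave -0.42 with SE 0.10 (limma adjusted p = 0.0185).

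Glutathione is made in steps, of which the first is run by glutamate-cysteine ligase, with GCLC as its catalytic and GCLM as its modifier subunit. GCLC (ENSG00000001084, chr6:53497341-53616970, minus strand) was at 5.93, 5.01 and 4.93 FPKM in Control-siRNA, 2.72, 2.86 and 2.62 in Control-siRNA+Mix, 4.68, 5.93 and 4.73 in PHGDH-siRNA and 2.48, 3.01 and 2.85 in PHGDH-siRNA+Mix. Every mix library lay below every library without mix, and the 2 siRNA groups overlapped both without and with mix. GCLC fell 1.93-fold with mix under control siRNA (log2 difference -0.75, SE 0.12, limma adjusted p = 0.00247) and 1.84-fold under PHGDH siRNA (-0.69, SE 0.12, limma adjusted p = 0.00464), but the latter missed the threshold when only the PHGDH siRNA libraries were fitted (limma adjusted p = 0.0863). GCLM (ENSG00000023909, chr1:93885205-93909456, minus strand), its partner, passed the threshold in neither arm. Its levels were 19.9, 14.3 and 16.9 FPKM in Control-siRNA and 15.0, 15.0 and 15.6 in Control-siRNA+Mix, 15.5, 18.8 and 14.3 in PHGDH-siRNA and 15.5, 25.3 and 17.8 in PHGDH-siRNA+Mix. Its differences with mix were -0.14 under control siRNA and 0.23 under PHGDH siRNA (SE 0.18 each, limma adjusted p = 0.730 and 0.509), and no pair of neighbouring groups was free of overlap. Its highest value belonged to PHGDH-siRNA+Mix replicate 2.

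TXNRD1 (ENSG00000198431, chr12:104215779-104350305, plus strand) encodes the cytosolic thioredoxin reductase, which recharges thioredoxin with electrons from NADPH. It was at 70.6, 62.0 and 63.9 FPKM in Control-siRNA, 69.5, 69.0 and 72.3 in Control-siRNA+Mix, 85.4, 62.5 and 91.1 in PHGDH-siRNA and 129.9, 63.9 and 92.0 in PHGDH-siRNA+Mix. The higher values under PHGDH siRNA were those of replicates 1 and 3, and the groups overlapped in every comparison. SRXN1 (ENSG00000271303, chr20:646615-653370, minus strand) encodes sulfiredoxin, which restores over-oxidised peroxiredoxins. It was at 2.32, 6.51 and 6.59 FPKM in Control-siRNA, 6.02, 5.36 and 4.03 in Control-siRNA+Mix, 4.79, 4.11 and 4.67 in PHGDH-siRNA and 3.87, 4.33 and 3.61 in PHGDH-siRNA+Mix. The widest spread was within Control-siRNA, where replicate 1 held 113 reads against 314 and 336. Neither gene passed the threshold with mix in either arm: the differences under control siRNA were 0.10 and 0.08 (limma adjusted p = 0.861 and 0.914) and under PHGDH siRNA 0.22 and -0.16 (limma adjusted p = 0.646 and 0.787). The differences under PHGDH siRNA with the replicate 2 pair left out were 0.15 for GCLM, 0.31 for TXNRD1 and -0.27 for SRXN1 (limma adjusted p = 0.550, 0.239 and 0.667). The pseudogene RPL18AP3 lies within TXNRD1 on the same strand with a mean of 251 FPKM, and 84.7% of the 50-base stretches of SRXN1 also occur in AL121758.1, which overlaps it and had a mean of 0.0182 FPKM. Antisense genes with reads overlap TXNRD1 (AC089983.1, mean 3.83 FPKM), AKR1C2 (AL391427.1, mean 0.457 FPKM), GCLC (AL033397.2, mean 0.0958 FPKM) and ALDH3A1 (AC005722.3, mean 0.042 FPKM). Without knowledge of strand, reads of these antisense genes cannot be told apart from those of the enzyme genes. RPL18AP3 and AL121758.1 lie on the same strand as TXNRD1 and SRXN1, so strand would not separate their reads. The handling of shared reads is not given in the sources used here.

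Across all 10 genes, 3 fell and 0 rose with mix under control siRNA: ALDH3A1, AKR1B10 and GCLC. Of all genes tested, 9.54% were called in this comparison, 5.62% higher and 3.92% lower. The same 3 genes fell under PHGDH siRNA, where 8.86% of all genes were called, 5.22% higher and 3.64% lower. The other 7 did not pass the threshold in either arm (limma adjusted p from 0.207 to 0.965 and from 0.122 to 0.787). The median log2 difference of the 10 genes was -0.05 under control siRNA and 0.03 under PHGDH siRNA, beside 0.00 over all genes tested in both. With the replicate block in the PHGDH siRNA arms, 7 of the 10 were called there, 4 lower and 3 higher, against 22.5% of all genes, 12.1% higher and 10.4% lower. Without the replicate 2 pair, 5 of the 10 were called under control siRNA (20.8% of all genes) and 6 of the 10 under PHGDH siRNA (15.1% of all genes). Cell markers also differed with mix. COL3A1, the one called marker of 7 for fibroblasts (5 of the 7 were under 0.5 FPKM in every group), fell from 1.03 to 0.0242 FPKM under control siRNA (limma adjusted p = 0.0120) and was at 0.641 and 0.0283 FPKM under PHGDH siRNA (limma adjusted p = 0.0920). KRT6A, a keratin of activated keratinocytes, rose 3.10-fold and 2.60-fold (limma adjusted p = 0.00614 and 0.0130). Of the 6 keratinocyte markers, KRT6A was the one called under control siRNA, and KRT6A and ITGA6 (log2 difference 1.21, limma adjusted p = 0.0363) were the 2 called under PHGDH siRNA, all higher. KRT5 lay on the other side, at 474 FPKM in Control-siRNA and 315 in Control-siRNA+Mix without overlap (log2 difference -0.56, limma adjusted p = 0.649) and with a difference of -0.64 under PHGDH siRNA (limma adjusted p = 0.571). When the replicate 2 pair was left out, 5 of the 6 were called higher in each arm and 1 lower under control siRNA. The 6 markers summed to 1283 to 1786 FPKM in Control-siRNA, 2786 to 2920.1 in Control-siRNA+Mix, 1326 to 5312 in PHGDH-siRNA and 2564 to 5532 in PHGDH-siRNA+Mix, and their part in the enzyme results was not tested. The mix comparisons use the Control-siRNA and PHGDH-siRNA libraries on which the choice of genes also drew. ALDH3A1 and AKR1B10 were chosen knowing that they were higher in Control-siRNA than in PHGDH-siRNA, which favours a fall with mix under control siRNA. Earlier results of all these data were also known. The shares over all genes therefore cannot show whether the 10 genes stand out with mix.

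**Figure D2:**
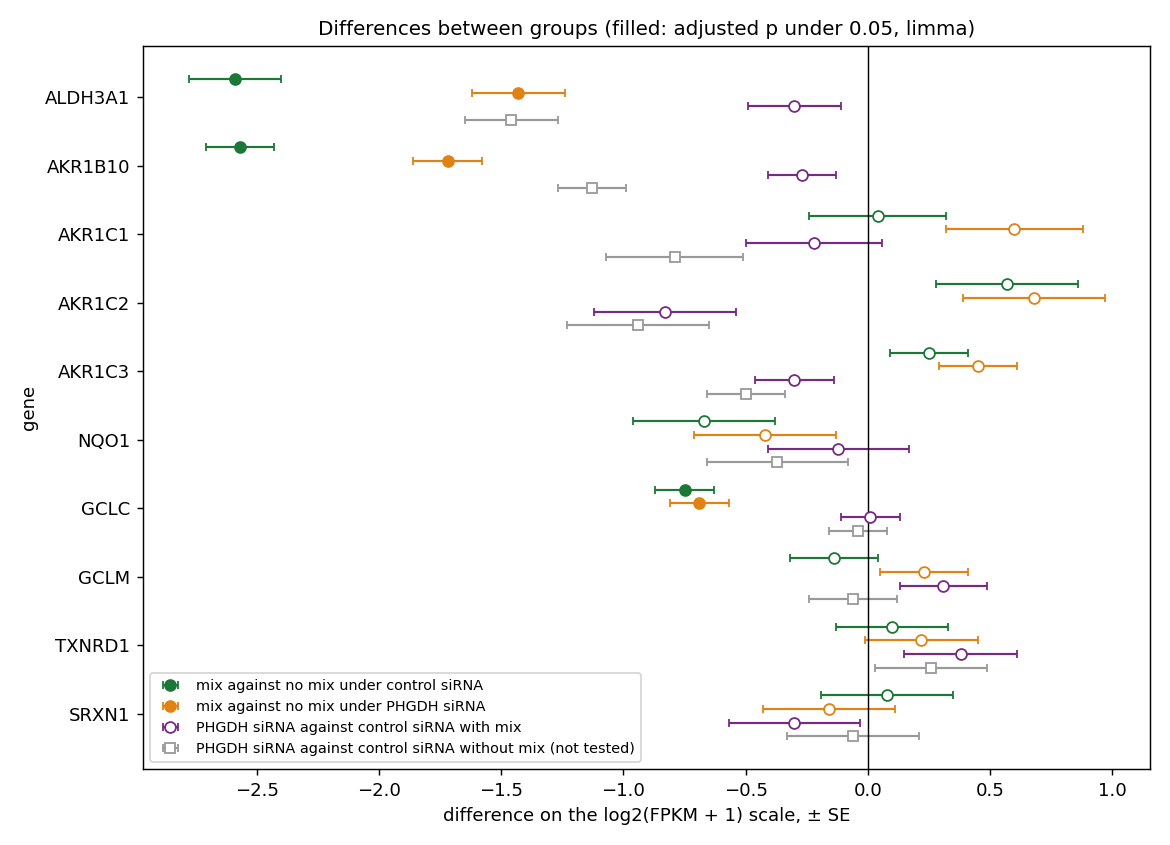
Difference between groups on the log2(FPKM + 1) scale (horizontal axis) with its SE for each gene (vertical axis) in 4 comparisons; filled symbols passed the limma threshold, and grey squares were not tested because they bear on the choice of genes. ALDH3A1, AKR1B10 and GCLC are filled in both mix comparisons, and no symbol is filled for PHGDH siRNA with mix.

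Earlier results of all these data were known when the genes were chosen. PHGDH siRNA was tested in cells with mix, whose libraries are not in the comparison on which the choice of genes drew. There, 0 of the 10 genes passed the threshold, as did 0.0206% of all genes (3 of 14577; 834 had an unadjusted p under 0.05), and limma-voom on recovered reads also called 0 of the 10. Without the replicate 2 pair it was 0 of the 10 again, with 0.379% of all genes called. ALDH3A1 was 1.70-fold lower in mean FPKM (log2 difference -0.30, SE 0.19, limma adjusted p = 0.979) and AKR1B10 1.94-fold lower (-0.27, SE 0.14, limma adjusted p = 0.931). With 0.1 added in place of 1 the differences were -0.67 and -0.83 (limma adjusted p = 0.828 and 0.847). Leaving out single libraries moved the value for AKR1B10 between -0.34 and -0.16. AKR1C2 was 1.69-fold lower (-0.83, SE 0.29, limma adjusted p = 0.730), and without the replicate 2 pair its difference was -0.44 (SE 0.14, limma adjusted p = 0.238). ALDH3A1, AKR1C2 and AKR1C3 did not overlap between the siRNA groups, all 3 lower with PHGDH siRNA, beside 7.33% of all genes that were apart in that direction. The differences of AKR1C1 (-0.22), NQO1 (-0.12) and GCLC (0.01) changed sign without PHGDH-siRNA+Mix replicate 2, to 0.10, 0.12 and -0.03. Those of GCLM, TXNRD1 and SRXN1 were 0.31, 0.38 and -0.30 (limma adjusted p = 0.979 each). The values for GCLM and TXNRD1 became 0.12 and 0.63 when the replicate 2 pair was left out (limma adjusted p = 0.862 and 0.106), and without PHGDH-siRNA+Mix replicate 1 that for TXNRD1 was 0.13. AKR1C3 gave -0.30, and -0.20 without the pair.

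In cells without mix, where ALDH3A1 and AKR1B10 were seen before they were chosen, the values are given as a description only. ALDH3A1 was 3.36-fold and AKR1B10 2.56-fold lower in mean FPKM with PHGDH siRNA (log2 differences -1.46, SE 0.19, and -1.13, SE 0.14). AKR1C2, AKR1C1 and AKR1C3 were 1.93-fold, 1.81-fold and 1.44-fold lower (-0.94, -0.79 and -0.50). These 5 genes did not overlap between the siRNA groups. Over all genes, 5.30% were apart and lower. The enzyme genes were chosen with results of this comparison known, so that share cannot show whether they stand out. The split of reads between AKR1C1 and AKR1C2 is also uncertain, so these genes may not count separately. The other 5 overlapped, with differences of -0.37 for NQO1, -0.04 for GCLC, -0.06 for GCLM, 0.26 for TXNRD1 and -0.06 for SRXN1. Without PHGDH-siRNA replicate 2 and its partner, the value for NQO1 was 0.00, those for ALDH3A1 and AKR1B10 were -1.35 and -1.09, and those for AKR1C1, AKR1C2 and AKR1C3 were -0.53, -0.75 and -0.42. GCLC and GCLM were then at -0.14 and -0.17, TXNRD1 at 0.43 and SRXN1 at 0.00.

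The estimated mix response of ALDH3A1 and AKR1B10 was smaller on the log scale under PHGDH siRNA, where the level without mix was lower. The interaction, that is the difference between the 2 mix responses (PHGDH siRNA minus control siRNA), was 1.16 (SE 0.27) for ALDH3A1 and 0.86 (SE 0.20) for AKR1B10. Since it contains the comparison on which the genes were chosen, no p is given. The size depended on the scale: limma-voom on recovered reads gave 0.96 for ALDH3A1 and 0.25 for AKR1B10, and 0.1 in place of 1 gave 1.04 and 0.50. Estimates for the other 8 genes lay between -0.25 for SRXN1 and 0.57 for AKR1C1. Over all genes, limma called 0 interactions (250 had an unadjusted p under 0.05), as did limma-voom.

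**Figure D3:**
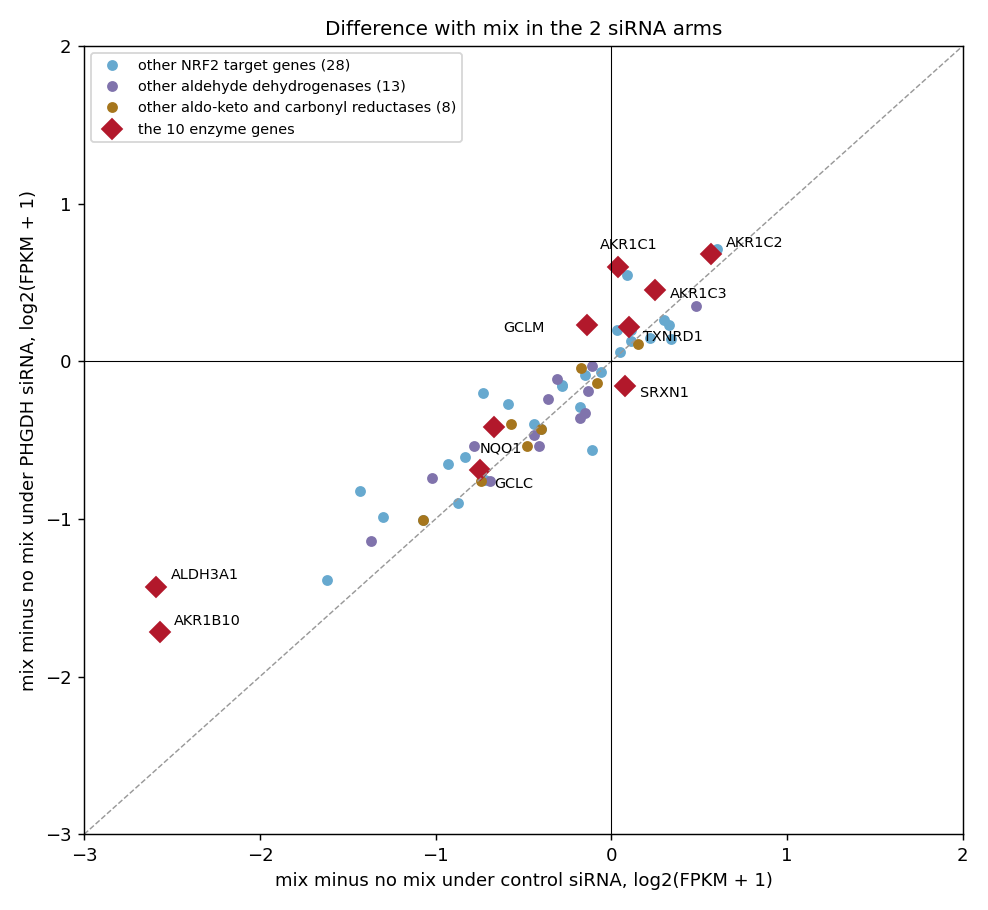
Difference with mix on the log2(FPKM + 1) scale under control siRNA (horizontal axis) and under PHGDH siRNA (vertical axis) for the 10 enzyme genes (red diamonds) and the tested genes of 3 further lists; the dashed line marks equal differences. ALDH3A1 (-2.59 and -1.43) and AKR1B10 (-2.57 and -1.72) lie above the line at the far left, and the AKR1C genes lie at or above 0 on both axes. The list labelled as aldo-keto and carbonyl reductases also holds a quinone reductase.

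The 2 PHGDH siRNA libraries numbered 2 shared their deviations for several of the enzymes. Measured as replicate 2 minus the mean of replicates 1 and 3 on the log2(FPKM + 1) scale, NQO1 was at -1.13 in PHGDH-siRNA and -0.73 in PHGDH-siRNA+Mix, AKR1C1 at -0.77 and -0.99, and AKR1C2 at -0.55 and -1.15. These 3 of 10 genes were lower by more than 0.5 in both, against 11.2% of all genes tested. TXNRD1 was at -0.49 and -0.76, while GCLM stood on the other side at 0.32 and 0.58. In the control siRNA groups the same measure for NQO1 was 0.03 and -0.03. ALDH3A1 was at -0.33 and -0.13, and AKR1B10 at -0.11 and 0.22. The same libraries held the highest KRT14 and KRT5, and the part of that in these deviations was not tested.

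**Figure D4:**
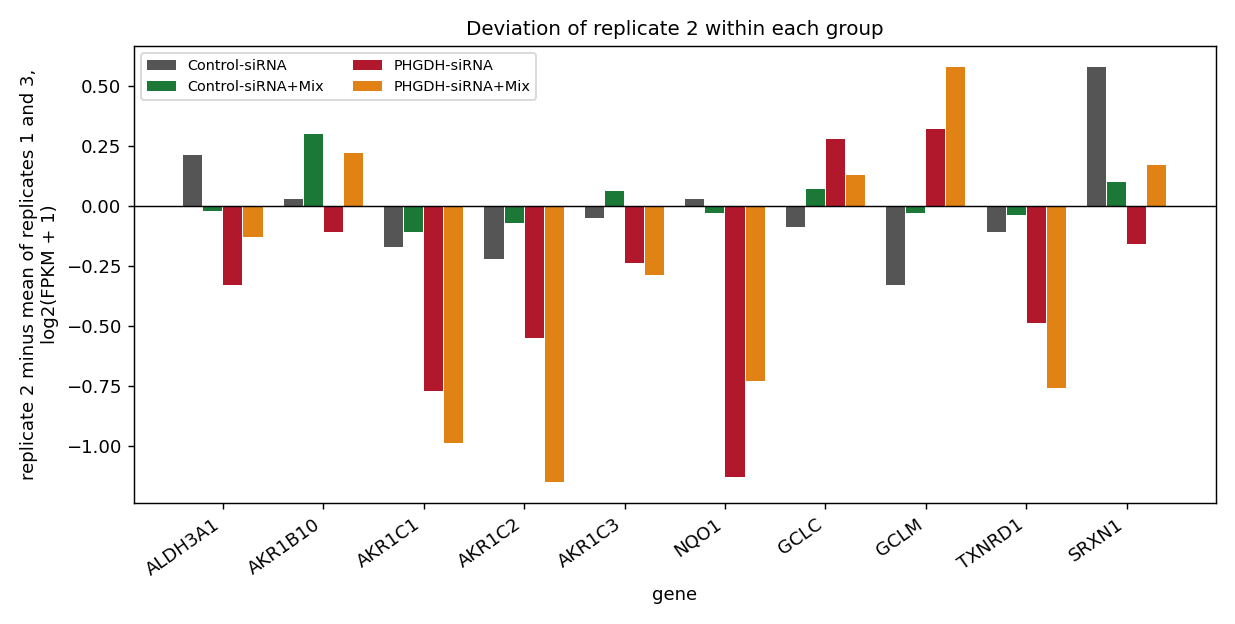
Replicate 2 minus the mean of replicates 1 and 3 on the log2(FPKM + 1) scale (vertical axis) for each gene (horizontal axis), with one bar per group. NQO1, AKR1C1, AKR1C2 and TXNRD1 were lower and GCLM higher in replicate 2 of both PHGDH siRNA groups, with control siRNA bars for NQO1 near 0.

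As a description over the 12 libraries, which share groups and the replicate 2 deviation, the 10 genes fell into sets. ALDH3A1 and AKR1B10 correlated at 0.979 and GCLC with them at 0.827 and 0.902, whereas AKR1C1, AKR1C2 and AKR1C3 correlated with each other at 0.842 to 0.919 but with ALDH3A1 at 0.0193, -0.131 and -0.215. NQO1 lay between, at 0.724 with ALDH3A1 and 0.439 with AKR1C1. The split of reads between AKR1C1 and AKR1C2 is uncertain, and its part in the correlation of these genes was not tested. Among 11281 other named genes that averaged at least 1 FPKM, the profiles most like ALDH3A1 were those of PADI3 (0.990), PIK3C2B (0.983), MPP2 (0.977) and UNC5B (0.973). PADI3, a peptidylarginine deiminase of the differentiating epidermis and hair follicle, had group means of 6.57 FPKM in Control-siRNA, 0.872 in Control-siRNA+Mix, 2.17 in PHGDH-siRNA and 0.362 in PHGDH-siRNA+Mix. The profiles most like AKR1B10 were UNC5B (0.986), AC022034.1 (0.981), PLXNA2 (0.980) and ATP5F1A (0.979). Those most like the mean profile of all 10 genes were HIST1H3G (0.932), MGST2 (0.931), a microsomal glutathione transferase, ZDHHC3 (0.926) and STYXL1 (0.922).

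The counts of the lists that follow are to be read against all genes tested: 5.62% higher and 3.92% lower under control siRNA, 5.22% and 3.64% under PHGDH siRNA, 12.1% and 10.4% with the block, and 20.8% and 15.1% called in either direction in the 2 arms without the replicate 2 pair. Among 11 tested regulators of the pathway, 2 rose with mix in both arms and 0 fell (median log2 difference 0.41 and 0.26). BACH1, the repressor that competes with NRF2, rose 3.62-fold under control siRNA (1.39 ± 0.610 to 5.02 ± 1.26 FPKM, limma adjusted p = 0.00981) and 2.82-fold under PHGDH siRNA (limma adjusted p = 0.0220). NFE2L1, a relative of NRF2 known for proteasome genes, rose 1.82-fold and 1.70-fold (limma adjusted p = 0.00438 and 0.0114). NFE2L2 itself was at 7.20 to 13.5 FPKM in Control-siRNA, 11.2 to 14.2 in Control-siRNA+Mix, 8.32 to 9.53 in PHGDH-siRNA and 12.2 to 14.8 in PHGDH-siRNA+Mix (limma adjusted p = 0.237 and 0.0960 with mix). KEAP1 gave -0.28 and -0.23 (limma adjusted p = 0.441 and 0.529). With the replicate block in the PHGDH siRNA arms 5 of the 11 regulators were called under PHGDH siRNA, all higher. Without the replicate 2 pair 5 were called higher under control siRNA and 2 under PHGDH siRNA.

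Of 28 other tested NRF2 targets, 9 fell with mix under control siRNA and 8 under PHGDH siRNA, and 0 rose (median -0.23 and -0.18). TRIM16L fell 3.24-fold and 2.76-fold (limma adjusted p = 1.33e-04 and 4.68e-04). EPHX1, the microsomal epoxide hydrolase, fell 2.99-fold and 1.89-fold (limma adjusted p = 7.91e-05 and 0.00395), and PIR, which encodes pirin, fell 2.56-fold and 2.02-fold (limma adjusted p = 3.34e-04 and 0.00251). HMOX1, the haem-degrading enzyme that NRF2 and BACH1 both control, lay on the other side without passing the threshold: it was at 3.73 to 5.86 FPKM in Control-siRNA, 6.64 to 8.21 in Control-siRNA+Mix, 5.44 to 9.54 in PHGDH-siRNA and 9.55 to 17.1 in PHGDH-siRNA+Mix (limma adjusted p = 0.155 and 0.0953 with mix). SLC7A11, the cystine transporter, gave 0.33 and 0.23 (limma adjusted p = 0.625 and 0.736). The block in the PHGDH siRNA arms called 11 of the 28 lower and 2 higher. Without the replicate 2 pair 11 were called lower under control siRNA and 8 under PHGDH siRNA, and 0 higher.

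Relatives of the enzymes were counted from the same fits. Of 13 other aldehyde dehydrogenases, 3 fell under control siRNA and 4 under PHGDH siRNA, and 0 rose (median -0.36 in both). These included 3 relatives of ALDH3A1: ALDH3B1 fell 3.86-fold and 3.27-fold (limma adjusted p = 1.65e-04 and 7.72e-04), ALDH3B2 3.32-fold and 3.47-fold (limma adjusted p = 1.76e-04 and 0.00194), and ALDH3A2, the fatty aldehyde dehydrogenase, 1.76-fold and 1.47-fold (limma adjusted p = 0.00653 and 0.0407). Without the replicate 2 pair, 8 of 12 tested aldehyde dehydrogenases were called lower and 1 higher under control siRNA. Under PHGDH siRNA 5 of the 12 were then called lower and 1 higher, and the block called 6 of the 13 lower and 1 higher. Of 8 other aldo-keto, carbonyl and quinone reductases, 3 fell under control siRNA and 2 under PHGDH siRNA (median -0.44 and -0.41). CBR3, also counted among the NRF2 targets, fell 2.46-fold and 2.40-fold (limma adjusted p = 0.00136 and 0.00251). AKR1B1, the aldose reductase of the AKR1B10 family (76.2% identical coding bases), gave 0.15 and 0.11 (limma adjusted p = 0.790 and 0.838). With the block, 5 of these 8 reductases were called lower under PHGDH siRNA. Without the replicate 2 pair 3 were called lower under control siRNA and 2 under PHGDH siRNA.

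In the glutathione system 2 of 24 genes rose and 4 fell under control siRNA, and 1 rose and 3 fell under PHGDH siRNA (median -0.09 and -0.04). GSR, the glutathione reductase, which also counts among the NRF2 targets, fell 1.86-fold and 1.91-fold (limma adjusted p = 8.42e-04 and 7.97e-04), while GPX3, a secreted glutathione peroxidase, rose 6.08-fold and 6.22-fold (limma adjusted p = 0.00135 and 0.00367). GSTK1 fell 1.69-fold under control siRNA (limma adjusted p = 0.0128) and was 1.39-fold lower under PHGDH siRNA (limma adjusted p = 0.113). With the block, 4 of the 24 were called higher and 6 lower under PHGDH siRNA, and without the replicate 2 pair 4 were called higher and 7 lower under control siRNA and 4 higher and 5 lower under PHGDH siRNA, beside 22.5%, 20.8% and 15.1% of all genes called in either direction. Among 19 thioredoxin, peroxiredoxin and related oxidant-removing genes, 1 rose in each arm and 2 fell under control siRNA (median -0.10 in both); 2 were called higher and 4 lower with the block under PHGDH siRNA, and likewise 2 and 4 under control siRNA without the replicate 2 pair, beside 22.5% and 20.8% of all genes called in either direction. Under PHGDH siRNA without the replicate 2 pair, 2 were called higher and 1 lower, beside 15.1% of all genes called in either direction. The 1 of 19 that rose in each arm compares with 5.62% and 5.22% of all genes called higher. SOD2, the mitochondrial superoxide dismutase, rose 22.9-fold and 17.7-fold (3.69 ± 0.354 to 84.4 ± 7.55 FPKM under control siRNA; limma adjusted p = 4.78e-07 and 1.15e-06). CAT, catalase, fell 2.07-fold under control siRNA (limma adjusted p = 0.0179) and was 1.52-fold lower under PHGDH siRNA (limma adjusted p = 0.115).

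ALDH3A1 and NQO1 are also known targets of the aryl hydrocarbon receptor, which senses aromatic compounds. Of 6 further tested genes linked to that receptor, 1 rose and 1 fell with mix in each arm (median -0.11 and -0.06). The genes of the receptor itself and of its partner are among the 6, beside its targets. CYP1A1, its classical target, fell 2.91-fold under control siRNA and 6.98-fold under PHGDH siRNA (3.58 ± 0.683 to 1.23 ± 0.104 and 3.90 ± 1.18 to 0.559 ± 0.209 FPKM; limma adjusted p = 0.00587 and 3.58e-04). TIPARP rose 1.92-fold and 2.07-fold (limma adjusted p = 0.00304 and 0.00208). CYP1B1 gave -0.28 and -0.50 (limma adjusted p = 0.856 and 0.695) and was at 8.37 and 4.30 FPKM in replicate 2 of the PHGDH siRNA groups against 0.436 to 1.19 in their other libraries. With PHGDH siRNA in the presence of mix, 0 genes of any of these lists were called, beside 0.0206% of all genes (3 of 14577). With so few calls over all genes, the absence of calls says little about the lists. Among their genes, ALDH3B2 gave -0.39 (limma adjusted p = 0.474) and HMOX1 0.66 (limma adjusted p = 0.730).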

How the data were processed

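Gene levels of 12 HaCaT libraries were taken from 1 table of FPKM deposited by the authors for 58735 genes, with gene lengths, and all 12 columns were used. Tools listed in the submitters' processing notes, with no roles, are featureCounts 1.5.0-p3, HISAT2 2.0.5 and CASAVA, with the build hg38; whether strand or shared reads were counted is not given in the sources used here. Multiplied by gene length, 100% of the values up to 200 reads were whole multiples of 1 step per library within 0.05 reads, which gave the read numbers; their error is counting error only.

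The 14577 genes that reached a group mean of 0.5 FPKM in some group were fitted with limma 3.58.1 (R 4.3.3; trend and robust options) on log2(FPKM + 1) in 1 model over 4 groups, leaving 8 residual degrees of freedom, with two-sided p-values and Benjamini-Hochberg adjustment over all genes tested and a threshold of 0.05. With 3 libraries a group, an exact permutation test could not go below 0.1. The script was tested on simulated data. The genes, lists and tests were chosen with earlier results of these data known. Text names all 10 enzymes, up to 3 genes per list past the threshold in a tested comparison (lowest adjusted p) and 8 set genes (NFE2L2, KEAP1, HMOX1, SLC7A11, AKR1B1, CYP1A1, CYP1B1 and PHGDH). Genes named as most alike are the 4 highest Pearson correlations on log2(FPKM + 1) with ALDH3A1, AKR1B10 or the mean standardised profile of all 10. 1 further set gene is not reported here. KRT14 was named after its values were seen, and KRT5 is also named outside this rule.

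Same-numbered libraries deviated together by more than 0.1 in 5 of 18 pairs (lowest -0.387), all 3 within the PHGDH siRNA arms among them, so a replicate block was used beside the mix comparison of those arms only. The labels do not say that same-numbered libraries are paired. The block rests on correlations in these same data, so its p-values are a check beside the main fit. All 10 gene positions matched GENCODE 29; promoters are RefSeq's, and coding sequences and 50-base stretches are from GENCODE 29.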

Additional observations from a re-analysis of the deposited data

How the results depend on the processing

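Depth limits mainly AKR1B10, with 3 to 24 reads in each mix library. The calls of ALDH3A1, AKR1B10 and GCLC with mix were kept in all alternatives but one, the fit of the PHGDH siRNA libraries alone, in which GCLC was lost (adjusted p = 0.0863, limma). Rescaling libraries by a median ratio changed none of these calls. Counts of calls moved more, and the cause was not tested.

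With mix under control siRNA, 1391 genes were called; leaving out single libraries gave 658 to 1780 with 3 to 4 of the 10 enzymes, leaving out the replicate 2 pair gave 3023 with 5, and the control siRNA libraries alone gave 2642 with 5. With mix under PHGDH siRNA, 1291 were called; leaving out single libraries gave 665 to 1644 with 3 to 5 of the enzymes, no filter on low values gave 761, leaving out the pair gave 2190 with 6, the PHGDH siRNA libraries alone gave 238, and the replicate block in those arms gave 3284 with 7. With PHGDH siRNA in mix, 3 were called; a pseudocount of 0.1 gave 1, no filter 5, limma-voom 5, the groups alone 0, single libraries left out 0 to 6, and the pair left out 55. Without mix the count over all genes was 6; no filter gave 1, the groups alone 0, single libraries left out 0 to 15, and the pair left out 101. How many of the enzymes were called there, or in the interaction, was planned but is not given, because the genes were chosen on that comparison. The interaction had 0 calls, and 5 with no filter.

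A replicate block over all 4 groups, whose numbers did not pair the libraries, gave 0 calls for PHGDH siRNA both with and without mix, and 1293 and 1188 for mix under control and PHGDH siRNA with 3 of the enzymes each.

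Some uncalled differences changed sign. Over single libraries left out they ran from -0.41 to 0.10 (AKR1C1), -0.31 to 0.12 (NQO1) and -0.03 to 0.07 (GCLC) for PHGDH siRNA with mix, from -0.04 to 0.09 (AKR1C1) and -0.31 to 0.28 (SRXN1) for mix under control siRNA, and from -0.04 to 0.47 (TXNRD1) for mix under PHGDH siRNA. For PHGDH siRNA with mix these were AKR1C1 (0.10), NQO1 (0.12) and GCLC (-0.03) without PHGDH-siRNA+Mix replicate 2, alone or with its partner, and GCLC (-0.01) without Control-siRNA+Mix replicate 3. For mix under control siRNA they were AKR1C1 with limma-voom (-0.03), without Control-siRNA replicate 2 (-0.02) or Control-siRNA+Mix replicate 1 (-0.04), and SRXN1 without Control-siRNA replicate 1 (-0.31) or Control-siRNA+Mix replicate 1 (-0.02). For mix under PHGDH siRNA it was TXNRD1 without PHGDH-siRNA+Mix replicate 1 (-0.04).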
